A study of Homo sapiens with 8 samples.

Results

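CTAG2, CSAG1, PRAME, CTCFL and FTHL17 are tumor antigen genes that were read by 7 probes of the array, out of 50599 distinct probes that were not controls. The probes were chosen by gene name, from a list of 6 names, and 5 of these names were found. No probe carries the name CTAG1B, but the CTAG2 probe lists RefSeq transcripts of CTAG1A, CTAG1B and CTAG2 together, so its signal cannot be divided among these 3 genes. PRAME had 3 probes and each of the other 4 genes had 1, and every probe was spotted once on each array.

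Cancer-testis antigens are proteins made in male germ cells, silenced in most other adult tissues by methylation of promoter DNA, and made again in many tumors. CTAG1A and CTAG1B are adjacent copies of one gene on the X chromosome that encode NY-ESO-1, a classical target of tumor immunity, and CTAG2 encodes its close relative LAGE-1. CSAG1 lies beside MAGE-A genes on the same chromosome. PRAME, an antigen first found in melanoma, binds the retinoic acid receptor and serves as a substrate receptor of a cullin-RING ubiquitin ligase. CTCFL, also called BORIS, is the germ cell paralog of the insulator protein CTCF, and FTHL17 encodes a testis form of the ferritin heavy chain. The drug 5-aza-dC (decitabine) is built into DNA and traps DNA methyltransferases, so that methylation is lost as cells divide.

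Expression was measured on 8 one-color arrays from HCT116 cells, an established human colorectal cancer line. The 4 groups were untreated control clones (CONT), control clones given 5-aza-dC, untreated TET1 knockdown clones (TET1-KD) and TET1-KD clones given 5-aza-dC, with n = 2 arrays each and 1 µM of the drug for 72 h. Each number is a single stable clone grown under G418, so CONT1, CONT2, TET1-KD1 and TET1-KD2 were each analyzed without and with the drug. The control clones carry a plasmid with a non-targeting miRNA, and each knockdown clone carries its own artificial miRNA against TET1. Groups were taken from the sample titles, because a treatment field of the labels gives mock to every CONT array and 5-aza-dC to every TET1-KD array.

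The 75th percentile of spot intensity was between 395.5 and 623.7 on the 8 arrays, and between 29490 and 34276 spots were well above background. The 2 arrays of treated CONT cells were on a second slide scanned 230 days after the first, which held the other 6, so slide and treatment cannot be told apart in CONT cells. Signals of 3 TET1 probes were lower on both untreated TET1-KD arrays than on both untreated CONT arrays. On the brightest TET1 probe the log2 signal was 9.70 and 9.75 in CONT cells against 8.65 in TET1-KD1 and 9.41 in TET1-KD2, a difference of -0.69 that did not pass the test (adjusted p = 0.6099, limma). Of 7 colorectal epithelium markers 6 or 7 were above background on each array, with KRT19 at a log2 signal between 17.36 and 17.76.

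The sequences of 4 of the probes are shown because the results below turn on what they read. All 4 are 60 bases long, with positions on hg19, and are printed 5′ to 3′ as designed. The CTAG2 probe lies at chrX:153880418-153880477 on the minus strand and is shared by the copies named above.

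CTAG2: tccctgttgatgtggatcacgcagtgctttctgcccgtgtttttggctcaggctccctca

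The PRAME probes shown next gave different results and lie at chr22:22891002-22891061 and chr22:22893184-22893243 on the minus strand. The first is in the coding sequence and lists 4 RefSeq transcripts, all of PRAME. The second lists 0 RefSeq transcripts, and its last 5 letters, in capitals, are those of a splice donor. Each of these PRAME probes has 1 reading frame without a stop. Whether the letters before the splice donor are coding too was not analysed here.

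PRAME coding probe: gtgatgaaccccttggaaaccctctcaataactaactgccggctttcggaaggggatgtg

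PRAME second probe: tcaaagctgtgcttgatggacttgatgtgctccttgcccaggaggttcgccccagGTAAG

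The FTHL17 probe, from the coding sequence at chrX:31089934-31089993 on the minus strand, is shown because ferritin heavy chain genes resemble each other in sequence.

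FTHL17: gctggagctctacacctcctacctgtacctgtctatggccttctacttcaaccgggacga

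The third PRAME probe lies upstream of the others at chr22:22900089-22900148, the CSAG1 probe at chrX:151909253-151909312 on the plus strand and the CTCFL probe at chr20:56072695-56072754 on the minus strand. The files give these as probe positions, and the exon or untranslated region behind them was not analysed here.

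To ask which of these antigens changed in signal with 5-aza-dC, treated and untreated arrays were compared within each kind of clone. CTAG2 and CTCFL rose strongly in both, from near or below background, and PRAME rose less than 2-fold from a level that was already well above background. CSAG1 and FTHL17, also well above background in untreated cells, did not pass the test in either. Of the 7 probes, 6 were bright enough to be tested, that is, above background in both clones of some group. In CONT cells 3 of the 7 were higher after 5-aza-dC and 0 were lower (adjusted p below 0.05), where 19.2% of all 27287 tested probes were higher. In TET1-KD cells 3 were also higher and 0 lower, against 8.91% of all tested probes. CTAG2 and CTCFL are among the 6 tested only through their treated arrays, so the counts and medians here are descriptions only. The median log2 change over the 6 tested probes was 0.32 in CONT cells and 0.81 in TET1-KD cells, beside medians of -0.08 and -0.07 over all tested probes. Signals are intensities scaled to a common 75th percentile, on the log2 scale, and less RNA per cell cannot be told apart from fewer cells expressing a gene.

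**Figure D1:**
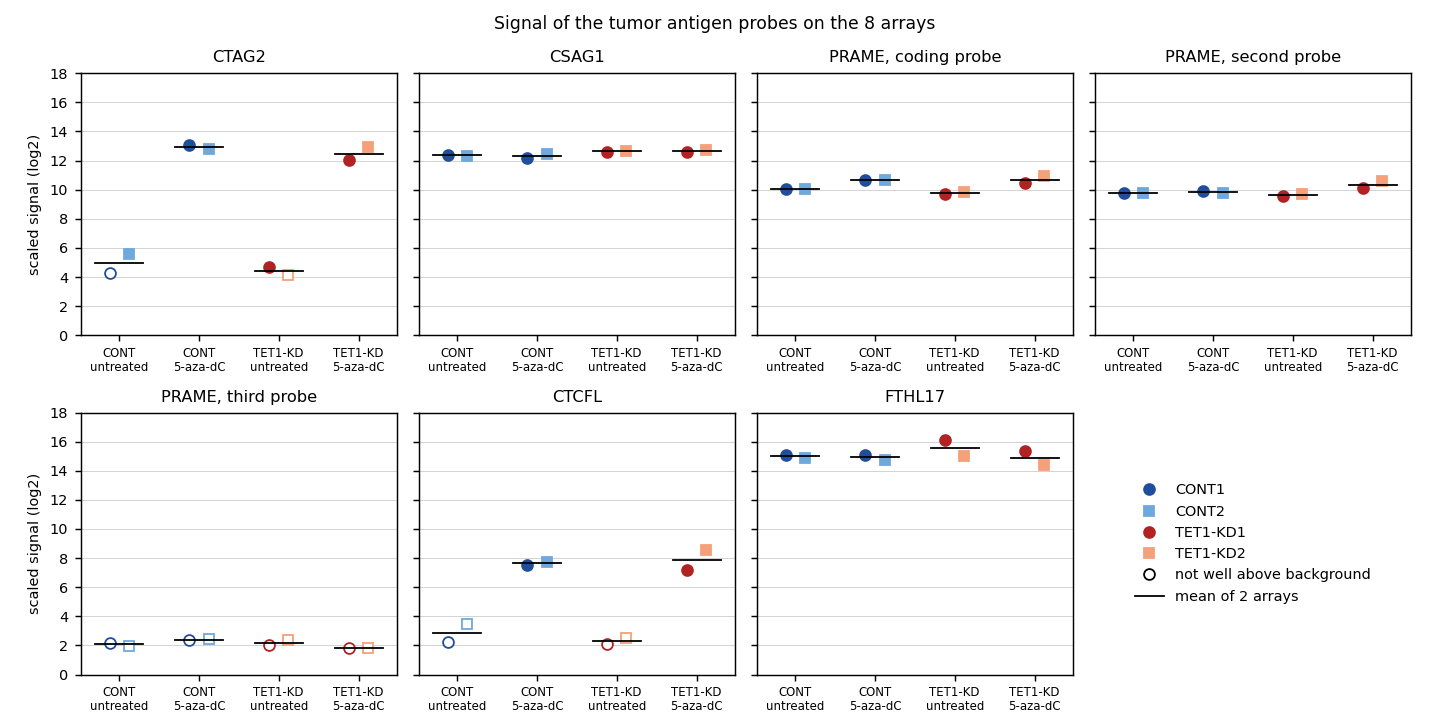
Log2 scaled signal of the 7 probes (vertical axis) on the 8 arrays, by group (horizontal axis), with 1 point per clone, open where the probe was not well above background, and a line at the mean of 2 arrays. CTAG2 and CTCFL climb to between 12.02 and 13.04 and between 7.17 and 8.54 on the treated arrays, while the CSAG1 and FTHL17 points of treated and untreated arrays overlap.

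CTAG2 showed the largest fitted response of the 5 genes. Without the drug its log2 signal was 4.27 (CONT1), 5.61 (CONT2), 4.66 (TET1-KD1) and 4.17 (TET1-KD2), and was well above background in CONT2 and TET1-KD1. With the drug it was 13.04, 12.80, 12.02 and 12.95 in the same order. All treated arrays were far above all untreated arrays, with no overlap. The group mean rose from 4.94 ± 0.94 to 12.92 ± 0.17 in CONT cells (SD, n = 2), which is 253-fold (log2 change 7.98, SE 0.50, limma adjusted p = 0.0001704), with 1 of the 2 untreated arrays below background. In TET1-KD cells it rose from 4.42 ± 0.35 to 12.49 ± 0.66, which is 268-fold (log2 change 8.07, SE 0.50, adjusted p = 0.0002407), again with 1 untreated array below background, so both folds rest in part on signals that are not measured. The untreated groups have no measured order, and the treated ones, with CONT above TET1-KD on average, did not differ beyond their spread. Within the first slide alone, which holds all TET1-KD arrays, the change in those clones was 8.07 with adjusted p = 0.00135.

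The probe named CTAG1A, which lists transcripts of CTAG1A and CTAG1B and lies within 100 kb of the CTAG2 probe, moved in the same way. Its log2 signal was 5.70 and 5.96 in untreated CONT cells and 15.50 and 15.22 after treatment. In TET1-KD cells it was 4.86 and 4.81 before and 13.74 and 14.52 after. These are rises of 738-fold (adjusted p = 3.001e-05) and 628-fold (adjusted p = 4.284e-05). After the drug it was lower in TET1-KD than in CONT cells by 1.23 on the log2 scale (adjusted p = 0.03084). The difference between the responses was -0.23 (adjusted p = 0.7565), and both comparisons were made across slides. LAGE3, an X-linked paralog used in tRNA modification in all tissues, had log2 signals between 13.58 and 13.98 and log2 changes of 0.03 and -0.13 that did not pass the test.

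CTCFL was below background on all 4 untreated arrays and above it on all 4 treated arrays. Its log2 signal was 2.26 (CONT1), 3.47 (CONT2), 2.12 (TET1-KD1) and 2.50 (TET1-KD2) before treatment, and 7.52, 7.75, 7.17 and 8.54 after it. Because the untreated signal is only a bound, the rise is given against the lowest signal above background on the untreated arrays. On that basis CTCFL was at least 9.99-fold higher in treated CONT cells (adjusted p = 0.00134) and at least 11-fold higher in treated TET1-KD cells (adjusted p = 0.001521). These bounds depend on how background is treated: the fitted log2 change was 1.86 in CONT and 2.44 in TET1-KD cells after normexp correction and 2.11 and 2.38 with an offset of 50, all of them called but smaller than the bounds. On the first slide alone the call in TET1-KD cells remained, with adjusted p = 0.00581.

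The somatic paralog CTCF, which binds insulators with cohesin, went the other way by a small amount. Its log2 signal was 10.16, 10.27, 10.22 and 10.35 on the untreated arrays and 9.68, 9.61, 9.74 and 9.65 on the treated ones. The fall was 0.57 in CONT cells (log2 change -0.57, adjusted p = 0.02148) and 0.59 in TET1-KD cells (log2 change -0.59, adjusted p = 0.04813). The call in CONT cells was lost in 9 of 22 alternatives, among them 4 of the 8 that left out 1 array and the spike-in scale, on which the change was -0.09. The call in TET1-KD cells was lost in 18 of 23, among them all 8 that left out 1 array. Of the 6 CTCF and cohesin genes listed, no gene other than CTCF passed in either kind of clone, and RAD21, a cohesin subunit, changed by -0.22 and 0.09. Of all tested probes 41.8% in CONT and 11.8% in TET1-KD cells passed in either direction.

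PRAME was already expressed. On the coding probe its log2 signal was 10.06 (CONT1), 10.08 (CONT2), 9.69 (TET1-KD1) and 9.84 (TET1-KD2) before the drug, and 10.68, 10.66, 10.47 and 10.91 after it. All 4 treated arrays were above all 4 untreated ones. The rise was 1.52-fold in CONT cells (log2 change 0.60, SE 0.19, adjusted p = 0.04133) and 1.90-fold in TET1-KD cells (log2 change 0.92, adjusted p = 0.02661). Both calls were near the threshold: the one in CONT cells was lost in 9 of 22 alternatives and the one in TET1-KD cells in 13 of 23. Both were lost without a filter on dim probes (adjusted p = 0.0842 and 0.0628) and when arrays were centred on their median (log2 changes 0.22 and 0.41). The call in CONT cells remained, of the 8 fits that each left out 1 array, only without treated TET1-KD1 or treated TET1-KD2, and the one in TET1-KD cells only without treated TET1-KD1.

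The second PRAME probe gave a different picture in CONT cells. Its log2 signal was 9.76 and 9.80 before and 9.90 and 9.74 after the drug in CONT cells, so the groups overlapped, with a log2 change of 0.04 (adjusted p = 0.8865). In TET1-KD cells it was 9.60 and 9.67 before and 10.09 and 10.60 after, a change of 0.71 that did not pass the test (adjusted p = 0.07563). The change passed in 3 of 23 alternatives, and without treated TET1-KD1 it was 0.96. The third probe was below background on all 8 arrays and was not tested.

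**Figure D2:**
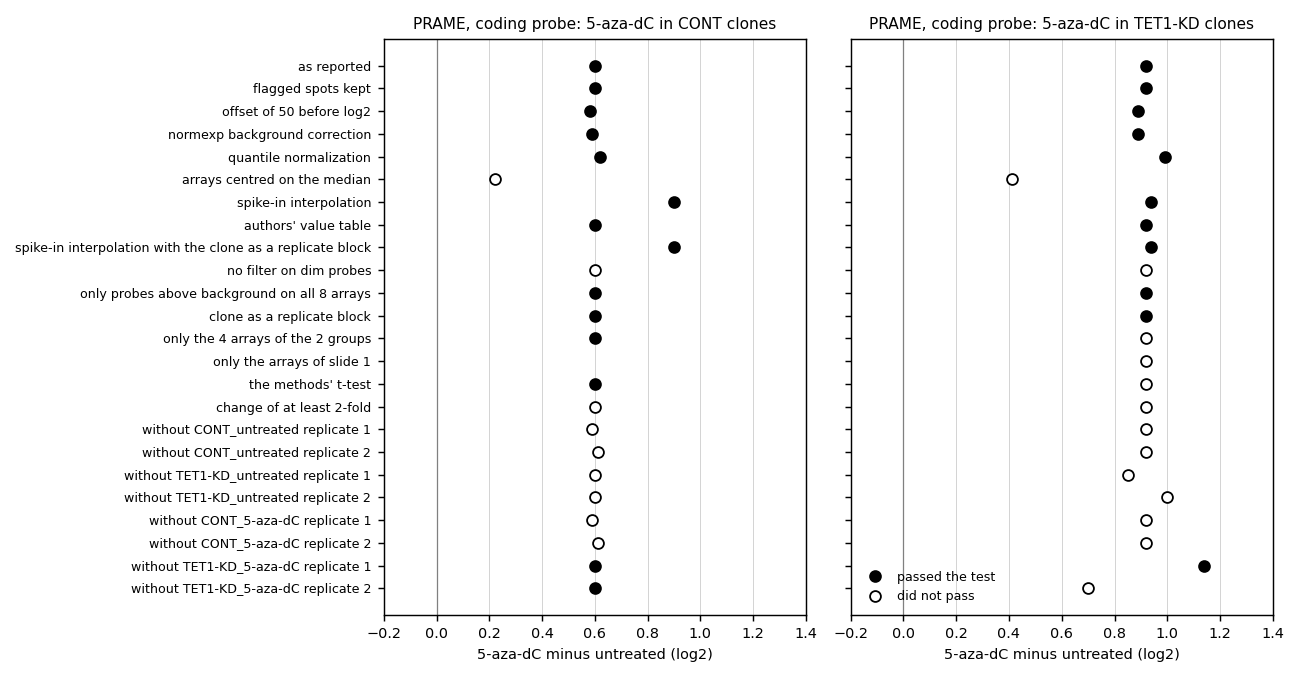
Log2 change of the PRAME coding probe after 5-aza-dC (horizontal axis) in CONT (left) and TET1-KD clones (right) as reported and under each alternative treatment of the data (vertical axis), filled where the change passed the test and open where it did not. The change stays between 0.22 and 0.90 in CONT and between 0.41 and 1.14 in TET1-KD clones, and open points stand at the same values as filled ones, 0.60 and 0.92.

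The PRAME-like PRAMEF genes, a cluster of recent duplicates on chromosome 1 expressed in the germ line, responded unlike PRAME itself. The array held 17 of them, 15 were below background on every untreated array and 10 were above it on every treated array. Of the 12 that were tested, 11 were higher in CONT and 11 in TET1-KD cells, where 19.2% and 8.91% of all tested probes were. All of the 12 except PRAMEF5 were below background without the drug and so were tested only because their treated arrays were bright, and the count describes these probes and supports nothing about the family. Among those that rose, 10 in each kind of clone started below background, with bounds from at least 2.46-fold to at least 44.6-fold in CONT cells and from at least 7.92-fold to at least 104-fold in TET1-KD cells. PRAMEF12, whose probe lists 1 RefSeq transcript, had log2 signals of 2.10, 1.94, 1.95 and 2.31 untreated and 10.02, 8.44, 10.17 and 10.22 treated. It was at least 30.1-fold higher in treated CONT cells (adjusted p = 0.0002014) and at least 55.4-fold higher in treated TET1-KD cells (adjusted p = 0.0002051). Probes of 11 PRAMEF genes list transcripts of more than 1 gene, so the count of genes that rose is uncertain.

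The start regions of PRAME and of PRAMEF12 are shown next to each other because PRAME was expressed without the drug and PRAMEF12 was not. Each is the 250 bases before a RefSeq start on GRCh38.p14, read along the gene, with CG dinucleotides in capitals. The PRAME window is the most upstream of 3, at chr22:22559266-22559515 on the minus strand, and holds 9 CG. The PRAMEF12 window, at chr1:12773488-12773737 on the plus strand, holds 3.

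PRAME start region: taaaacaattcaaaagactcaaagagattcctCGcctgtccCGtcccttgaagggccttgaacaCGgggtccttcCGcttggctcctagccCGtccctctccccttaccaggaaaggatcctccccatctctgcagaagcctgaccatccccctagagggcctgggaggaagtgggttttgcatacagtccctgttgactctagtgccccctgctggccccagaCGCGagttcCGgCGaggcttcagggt

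PRAMEF12 start region: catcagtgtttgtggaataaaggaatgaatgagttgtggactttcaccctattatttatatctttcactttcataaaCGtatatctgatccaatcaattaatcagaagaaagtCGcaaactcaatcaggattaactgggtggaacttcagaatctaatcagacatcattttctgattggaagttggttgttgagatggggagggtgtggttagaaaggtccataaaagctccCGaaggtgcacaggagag

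The median over all 35116 RefSeq windows of this length was 11 CG. The 3 PRAME windows held 9, 8 and 4, the 3 CTCFL windows 15, 7 and 2 and the CSAG1 window 16, and 41.0% of all windows held at least as many as that of CSAG1. The 14 windows of 13 PRAMEF genes held between 1 and 5, a range that also takes in 1 PRAME and 1 CTCFL window. By comparison the window of CTCF held 39, reached by 2.7% of windows. Whether these cells' DNA was methylated at these places was not analysed here.

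CSAG1 was strongly and evenly expressed. Its log2 signal was 12.36 (CONT1), 12.34 (CONT2), 12.59 (TET1-KD1) and 12.69 (TET1-KD2) without the drug and 12.17, 12.45, 12.62 and 12.70 with it. The groups overlapped within each kind of clone. The log2 change was -0.04 in CONT cells (95% interval -0.42 to 0.34, adjusted p = 0.8547) and 0.02 in TET1-KD cells (-0.36 to 0.40, adjusted p = 0.9507), and both intervals lie within 0.42 of 0. CSAG2, whose listed transcripts are named CSAG3 in RefSeq where they matched, fell by 0.53 on the log2 scale in CONT cells (adjusted p = 0.03524) and was at 0.01 in TET1-KD cells (adjusted p = 0.9797). On the spike-in scale the CSAG2 value in CONT cells was -0.17 and was not called.

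The neighbours of CSAG1 on the X chromosome were also expressed before treatment. MAGEA12, a MAGE-A antigen whose RefSeq start lies beside that of CSAG1 on the opposite strand, had log2 signals between 12.63 and 13.45 and changes of 0.31 and 0.49 that did not pass the test. MAGEA2B and MAGEA6 rose in CONT cells by 0.73 (adjusted p = 0.01466) and 0.65 (adjusted p = 0.02848) on the log2 scale. In TET1-KD cells their changes of 0.20 (adjusted p = 0.4922) and 0.51 (adjusted p = 0.121) did not pass. Around PRAME, ZNF280A, a zinc finger gene within 100 kb, rose in CONT cells by 1.49 (adjusted p = 0.02461), and its change of 0.78 in TET1-KD cells did not pass. POM121L1P, also within 100 kb, fell in CONT cells (log2 change -1.02, adjusted p = 0.002819) and was at -0.14 in TET1-KD cells (adjusted p = 0.5903). Its log2 signals in treated CONT1 and CONT2 were 4.80 and 4.85, near background, and that of CONT2 was not above it. Around CTAG2, the NF-kappaB regulator IKBKG fell in CONT cells (log2 change -0.52, adjusted p = 0.03152) and was at 0.00 in TET1-KD cells. For MAGEA2B, MAGEA6, ZNF280A, POM121L1P and IKBKG the difference between the responses did not pass the test (limma, adjusted p from 0.0618 to 0.7813). So a response in CONT cells alone was not shown, and the changes in CONT cells are also changes between slides. RBM38, an RNA-binding protein gene and the one named neighbour tested within 100 kb of CTCFL, changed by 0.25 and 0.50 without passing the test, and FTHL17 had no such neighbour.

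FTHL17 gave a bright signal in every condition. The log2 values were 15.09 (CONT1), 14.91 (CONT2), 16.13 (TET1-KD1) and 14.99 (TET1-KD2) without the drug and 15.11, 14.76, 15.33 and 14.38 with it. TET1-KD1 was the highest array of both treatments, and the groups overlapped. The log2 change was -0.07 in CONT cells (95% interval -1.16 to 1.03, adjusted p = 0.9185) and -0.70 in TET1-KD cells (-1.80 to 0.39, adjusted p = 0.3716). When each clone was compared with itself (a replicate block) the fall in TET1-KD cells passed the test (log2 change -0.70, adjusted p = 0.0430), as TET1-KD1 and TET1-KD2 fell by similar amounts from different levels. FTH1, the ubiquitous ferritin heavy chain, had log2 signals between 17.07 and 17.63 on the same arrays, and its share in the FTHL17 signal was not tested. FTL, the ferritin light chain, fell by 1.42 on the log2 scale in CONT cells (adjusted p = 0.00129) and was at -0.40 in TET1-KD cells (adjusted p = 0.1704). Of the 6 iron storage genes listed, NCOA4, a cargo receptor for ferritin breakdown, rose in CONT cells (log2 change 0.95, adjusted p = 0.01133), FTL fell, and none passed in TET1-KD cells. The iron exporter SLC40A1 was also called higher in CONT cells, but it was below background on all 4 of their arrays, so that call has no measured fold. In CONT cells 19.2% of all tested probes were higher and 22.6% lower. In the difference between the responses, 0 of the 6 iron storage genes passed the test.

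The second question of the design was whether TET1 depletion changed these antigens or their response. None of the 6 tested probes differed between untreated TET1-KD and CONT cells (limma, 0 called, 0 at an unadjusted p below 0.05), where 0.0147% of all tested probes did. After the drug 0 of 6 differed, with 1 at an unadjusted p below 0.05, against 18.8% of all tested probes, a comparison that is also one between slides. In the difference between the responses 0 of 6 passed and 0 were below 0.05 unadjusted, against 5.58%. That difference also takes in the treated CONT arrays, which alone were on the second slide. The median differences over the 6 probes were -0.22, 0.12 and 0.20 on the log2 scale, beside 0.02, 0.04 and 0.05 over all tested probes. The comparisons share arrays with those above.

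**Figure D3:**
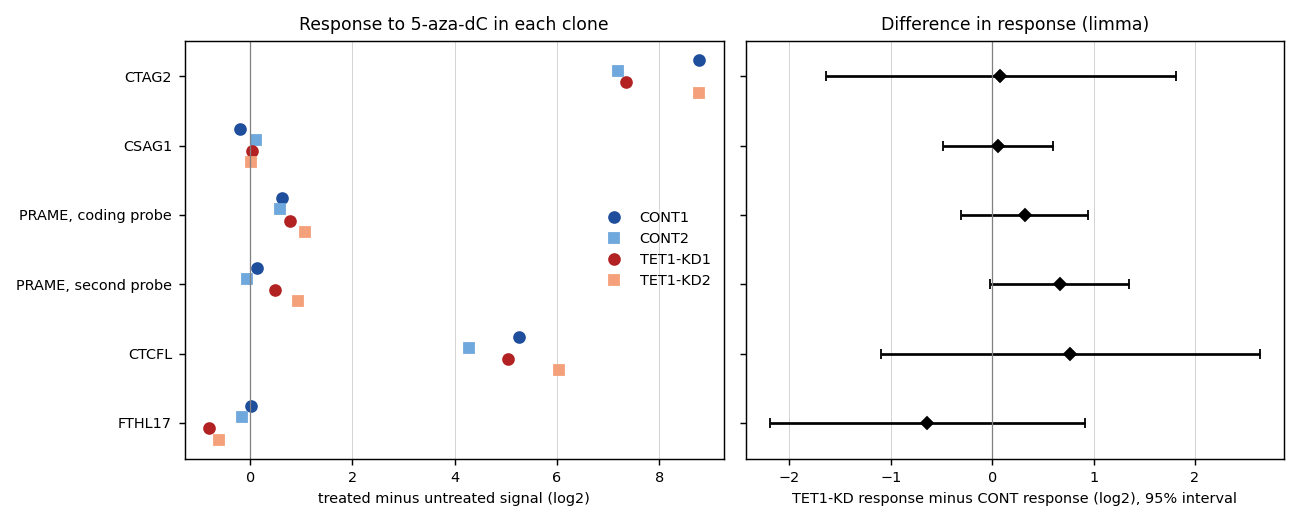
Left, treated minus untreated log2 signal of each clone (horizontal axis) for the 6 tested probes (vertical axis), and right, the TET1-KD response minus the CONT response with its 95% interval. The CTAG2 responses of the 4 clones lie between 7.19 and 8.78, those of CTCFL between 4.28 and 6.04, and all 6 intervals on the right hold 0.

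Clone by clone, CTAG2 rose on the log2 scale by 8.77 (CONT1), 7.19 (CONT2), 7.36 (TET1-KD1) and 8.78 (TET1-KD2). The spread within each kind was larger than the difference between kinds, which was 0.08 (95% interval -1.64 to 1.81, adjusted p = 0.9549). For CTCFL the fitted rises were 5.26, 4.28, 5.05 and 6.04, and the difference was 0.77 (-1.10 to 2.64, adjusted p = 0.583). On the treated arrays alone, where CTCFL was measured in all 4 clones, TET1-KD minus CONT was 0.22 (adjusted p = 0.8076).

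For PRAME the coding probe rose by 0.62 (CONT1), 0.59 (CONT2), 0.78 (TET1-KD1) and 1.07 (TET1-KD2), and the difference of 0.32 had an interval from -0.31 to 0.95 (adjusted p = 0.4978). The second probe changed by 0.14, -0.06, 0.49 and 0.93. Its difference of 0.67, with an interval from -0.02 to 1.35, did not pass the test (adjusted p = 0.2132), although both TET1-KD values were above both CONT values. A larger response of PRAME in TET1-KD cells was not detectable with 2 clones of each kind, and the intervals allow one of up to 0.95 and 1.35 on the 2 probes.

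CSAG1 was higher in both TET1-KD clones than in both CONT clones, without the drug by 0.29 (-0.09 to 0.68, adjusted p = 0.6385) and with it by 0.36 (-0.03 to 0.74, adjusted p = 0.1621). Neither passed the test, and the responses differed by 0.06 (-0.48 to 0.60, adjusted p = 0.8926). FTHL17 differed by 0.56 without the drug (adjusted p = 0.7122), with TET1-KD2 inside the CONT range, and its responses differed by -0.64 (-2.19 to 0.92, adjusted p = 0.5868).

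Other genes with a like pattern over the 8 arrays were then listed. The measure was the root mean square difference of log2 signals, each centred on its own mean over the 8 arrays, among 15467 other named genes. CTAG2 was closest to SCCPDH (0.41), COX7A1 (0.43) and the small nucleolar RNA SNORD114-15 (0.51), all of them below background without the drug and above it with the drug on every array. CTCFL was closest to HOMER2 (0.32), the testis bromodomain gene BRDT (0.32) and SELENBP1 (0.40). PRAME was closest to KDM3A (0.06), CSAG1 to VAMP8 (0.06) and FTHL17 to SPRYD4 (0.14). Among the antigens, CTAG2 and CTCFL differed by 1.48 and CSAG1 and PRAME by 0.47, while CTAG2 and FTHL17, the pair furthest apart, differed by 4.27.

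The other genes of these families and functions were taken from lists. Of 26 relatives of the 5 genes, 25 had a probe, 20 were tested, 12 were higher in CONT and 12 in TET1-KD cells, and 3 and 1 were lower. Of all tested probes 19.2% in CONT and 8.91% in TET1-KD cells were higher, and 22.6% and 2.9% were lower. Of the 12 that rose in each, 10 were PRAMEF genes tested through their treated arrays alone. The relatives that rose were CTAG1A and PRAMEF genes, and those that fell were CSAG2, CTCF and FTL in CONT cells and CTCF in TET1-KD cells. Of 8 genes for proteins known to act with PRAME, 7 were tested. In CONT cells RBX1 (log2 change 0.97, adjusted p = 0.003425) and TCEB1 (0.79, adjusted p = 0.01481), which are ligase subunits, rose, and the retinoic acid receptor RARG (-1.65, adjusted p = 0.003309) and the ligase subunit TCEB2 (-0.85, adjusted p = 0.03751) fell. None of the 7 passed in TET1-KD cells. Beside the shares of all tested probes above, these partner counts are descriptions only. Of the 7, RBX1 alone differed in its responses, by -1.12 (adjusted p = 0.03587), where 5.58% of all tested probes did. This is also a comparison across slides.

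**Figure D4:**
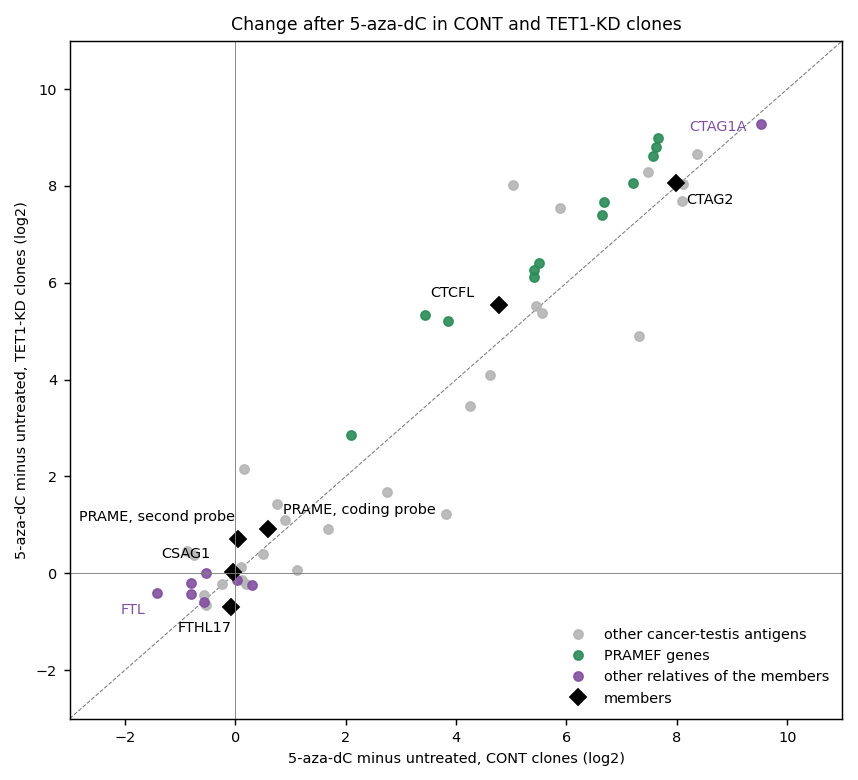
Log2 change after 5-aza-dC in CONT clones (horizontal axis) against TET1-KD clones (vertical axis) for the 6 tested probes, the tested relatives and other cancer-testis antigens, with a dashed line of equal change. The value of a gene below background without the drug, as CTCFL, is a fitted one. CTAG2 lies at 7.98 and 8.07, CTAG1A at 9.53 and 9.29 and CTCFL at 4.77 and 5.55, whereas CSAG1 and FTHL17 lie near or below 0.

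Single markers of other cell types moved with the drug. The monocyte marker CD14 had log2 signals between 5.42 and 5.82 untreated and between 6.92 and 8.34 treated, a change of 2.75 in CONT cells (adjusted p = 0.0005296) and 1.60 in TET1-KD cells (adjusted p = 0.009508). The leukocyte marker PTPRC changed by 1.56 in CONT cells (adjusted p = 0.0145) and by 0.08 in TET1-KD cells (adjusted p = 0.9089). VWF, an endothelial marker, changed by 2.27 (adjusted p = 0.00121) and 2.69 (adjusted p = 0.001276). Of the 3 endothelial markers listed, 2 were called higher and 1 lower in CONT cells, and 1 higher and 0 lower in TET1-KD cells. The summed intensities of 3 endothelial and 4 fibroblast markers were between 95 and 115 and between 329 and 448 untreated, and between 193 and 286 and between 602 and 848 treated, with the fibroblast markers COL1A2 and LUM below background on all 8 arrays. The sum of the 7 epithelial markers, in which the brightest weigh most, was between 327685 and 396086 throughout. Singly, 2 of the 7 were called higher and 2 lower in CONT cells, and 1 higher and 0 lower in TET1-KD cells. Among all tested probes 19.2% were higher and 22.6% lower in CONT cells, and 8.91% and 2.9% in TET1-KD cells. The part of these marker changes in the antigen results was not tested.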

How the data were processed

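RNA from 8 HCT116 cultures was hybridized to one-color SurePrint G3 Human GE 8 x 60K arrays. The authors deposited spot intensity values written by Agilent Feature Extraction 10.7, per the labels, with background subtracted, poor spots flagged and no scaling between arrays. A deposited table of the same intensity values, within a ratio of 0.995 to 1.005 of them, was used as an alternative. The authors' analysis in GeneSpring used t tests with Benjamini-Hochberg correction, and its normalization is not given in the sources used here.

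Of 62976 spots, 58717 were not controls. Processed intensities were divided by each array's 75th percentile, rescaled by the percentiles' geometric mean, floored at 1 and converted to log2. Flagged spots were left out (between 229 and 329 an array), and repeated probes were averaged. A share of spots of 0.5 well above background made a probe above background, and the 27287 probes for which both arrays of some group met this were tested. Means of 4 groups were fitted over all 8 arrays in R 4.3.3 by limma 3.58.1 (lmFit and eBayes), and p-values were adjusted by Benjamini-Hochberg over all tested probes. Intervals are 95% limits of single probes. The labels give no separate cultures within a clone, so p-values measure the spread between the clones. The number of arrays limits the precision.

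"At least" folds compare the brighter group with the higher, per array, of the lowest signal above background and the probe's own signal. Replicate numbers pair samples by design, since each number is 1 clone (correlation of same-clone deviations 0.20 in CONT and 0.48 in TET1-KD). For a gene with several probes, the brightest on average stands for it. Named genes were the listed genes, their relatives, partners and marker lists, up to 3 neighbours on each side within 100 kb, and the 3 genes most like each in pattern. The leukocyte marker list is not reported here as a whole. The genes and lists were chosen with earlier results of these data known. The fit was tested on simulated data of 27287 probes, with 200 probes changed by 2 on the log2 scale in CONT cells. Of these 100% were recovered, with 12 false calls among 212. The simulated spread was the same for every probe, without clone or slide effects, so it does not show what could be detected in these data. Figures used matplotlib 3.10.9. Alternatives covered background correction, scaling, filters, the replicate block, the arrays in the fit, a minimum fold, the methods' t-test and leaving out each array.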

Additional observations from a re-analysis of the deposited data

Results flagged for a closer look

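On the second slide, which held both treated CONT arrays, unscaled spike-in signals were compared with those of the first slide. Each spike-in control RNA above background on all arrays was dimmer on average there. The 75th percentile used for scaling was lower there too, at 395.5 and 476.1 against 546.3 to 623.7. The spike-in differences given here are therefore not on the scaled log2 scale of the results above. The rest of the 10 spike-ins, not above background on all arrays, differed by between -0.538 and -0.003 on the log2 scale. The largest difference was -1 on the log2 scale, for a spike-in whose SD over the 6 arrays of the first slide was 0.052. Control probes were not tested themselves, and their only use was to set the spike-in scale. On that scale the fitted log2 changes in CONT cells were 8.02 for CTAG2, 5.41 for CTCFL, 0.90 for the PRAME coding probe, 0.03 for CSAG1 and -0.13 for FTHL17. The part of the slide in the results was not tested beyond that.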

How the results depend on the processing

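Of the 7 probes, the count called in CONT cells was 1 when the test was limited to probes above background on each of the 8 arrays, which leaves out CTAG2 and CTCFL by construction, and between 2 and 3 when single arrays were left out. In TET1-KD cells it was 1 under the same filter, between 2 and 4 with single arrays left out (4 without treated TET1-KD1, which adds the second PRAME probe), and 0 by the methods' t-test, by which 2 were below an unadjusted p of 0.05. That t-test called 2 in CONT cells, CTAG2 and the PRAME coding probe. Counts for the other 3 comparisons were between 0 and 0 with single arrays left out and 0 in every alternative, and the TET1 difference was between -1.07 and -0.31. Under the replicate block, which compares each clone with itself, the counts were 3 in CONT and 4 in TET1-KD cells, where FTHL17 was added, and the block ended the call of CTCF in TET1-KD cells (adjusted p = 0.0613) and changed no other call of the 5 genes.

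Changes near 0 turned sign: the second PRAME probe in CONT cells was -0.34 with arrays centred on the median and -0.04 without treated CONT1, CSAG1 in TET1-KD cells was -0.49 with arrays centred on the median, -0.03 without untreated TET1-KD1 and -0.02 without treated TET1-KD2, CSAG1 in CONT cells was 0.03 on the spike-in scale with and without the replicate block and 0.10 without treated CONT1, and FTHL17 in CONT cells was 0.02 without untreated CONT1 and 0.10 without treated CONT2. With single arrays left out the second PRAME probe ranged from -0.04 to 0.12 and FTHL17 from -0.24 to 0.10 in CONT cells, and CSAG1 from -0.18 to 0.10 in CONT and from -0.03 to 0.07 in TET1-KD cells. The cause was not tested. Median centring moved the median of all tested probes to -0.47 in CONT and -0.58 in TET1-KD cells, and the spike-in scale moved it to 0.33 and -0.04. With the latter 31.1% of tested probes were higher in CONT cells, and with the former 12.6%. CTAG2 and CTCFL kept their direction in every alternative that tested them, with log2 changes from 6.05 to 8.65 and from 1.86 to 5.41 in CONT cells, where the lowest values came from normexp background correction.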

Other observations

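Cancer-testis antigens of other families were measured on the same arrays. Of 40 listed, 27 were tested, 11 were never above background, 17 were higher after 5-aza-dC in CONT cells and 15 in TET1-KD cells, and 0 were lower, where 19.2% and 8.91% of all tested probes were higher. Of those that rose, 10 in CONT and 9 in TET1-KD cells started below background and were tested because their treated arrays were bright, so these counts and medians are descriptions only. The median log2 change was 1.68 in CONT and 1.44 in TET1-KD cells, or 1.68 and 1.31 with genes below background set at their bounds. CT45A5, of an X-linked germ cell family, had log2 signals of 5.63, 4.96, 3.61 and 4.92 untreated and 13.79, 13.51, 12.31 and 13.57 treated (adjusted p = 0.0002191 in CONT and 0.0002921 in TET1-KD cells). DDX43, a germ cell RNA helicase, was at least 60.5-fold higher in treated CONT cells (adjusted p = 3.001e-05) and at least 58.1-fold higher in treated TET1-KD cells (adjusted p = 4.348e-05). PASD1, a testis gene related to the clock protein CLOCK, was at least 54.8-fold and at least 42.6-fold higher (adjusted p = 9.32e-05 and 0.0001691).

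PLAC1, a placental gene, was the one listed antigen whose responses differed between kinds of clone (difference 2.00, adjusted p = 0.03443). Its log2 signal was 7.03 and 7.73 in untreated CONT cells, 5.65 and 5.52 in untreated TET1-KD cells and between 7.41 and 7.75 on the treated arrays. The rise in TET1-KD cells was 2.16 (adjusted p = 0.003105), and in CONT cells the change of 0.16 did not pass (adjusted p = 0.6439). The difference between these responses is also a comparison across slides. Without the drug TET1-KD minus CONT was -1.79 and did not pass the test (adjusted p = 0.2418). The mitotic kinase TTK, which dividing cells of all kinds express, did not pass the test (log2 changes -0.25 and -0.22).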
